A study of Mus musculus with 12 samples.

Results

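Batf, Batf2, Batf3, Bach1 and Bach2 encode related basic leucine zipper (bZIP) transcription factors, and the accessible chromatin around these 5 genes was followed in mouse natural killer (NK) cells. Every accessible interval within 50 kb of the gene bodies was taken from the authors' lists, in all 819 intervals of the 603679 deposited for 12 libraries, and 63 of the 45082 regions built from those lists. The 5 genes were taken from 21883 protein-coding genes, of which 17616 had a region within 50 kb. They were chosen by family membership with the calls at Batf3 already known, where 2 regions were more often called after stimulation, so stimulation values at Batf3 are given as a description without a test.

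BATF, BATF2 and BATF3 are short bZIP proteins that pair with JUN proteins on AP-1 sites and, together with IRF4 or IRF8, on composite AP-1 and IRF elements. BACH1 and BACH2 carry a BTB domain beside the bZIP domain, pair with the small MAF proteins and mostly repress the genes they bind, often at AP-1-like sites. In T cells BATF accompanies activation and BACH2 holds back effector genes, in mouse dendritic cells BATF3 is needed for the cross-presenting lineage, BACH1 responds to heme, and BATF2 is induced by interferons in macrophages.

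ATAC-seq, in which a transposase cuts and tags accessible DNA, had been run on splenic NK cells with 100000 cells per library. The 4 groups of 3 libraries were KO cells stimulated with IL-12/18, KO control cells, WT cells stimulated with IL-12/18 and WT control cells. The KO cells lacked Regnase-1, an RNA-degrading enzyme, in NK cells (Reg-1ΔNK), and the WT cells carried the floxed Reg-1 allele (Reg-1fl/fl). The driver of the deletion, the dose and time of IL-12/18 and the age of the mice are not given in the sources used here, nor is it stated that the 3 libraries of a group came from separate mice, so p-values measure the spread between these libraries.

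The lists differed in length. They held 35110 to 54303 intervals in KO stimulated, 46971 to 53258 in KO control, 55146 to 63128 in WT stimulated and 42520 to 53440 in WT control libraries, and the read depth is unknown. KO stimulated replicate 1 had the shortest list, and its weakest interval had a deposited −log10 q of 1.31. Each list was therefore reduced to its 35110 strongest intervals, which ended at −log10 q values of 4.60 to 27.05 in the other 11 libraries. Of 10 NK marker genes, 9 had such an interval within 1 kb of a gene end in every library. Ms4a1 and Pax5 (B cells), Cd8b1 (T cells), Csf1r and Lyz2 (myeloid cells) and Gata1 and Hba-a1 (erythroid cells) had no deposited interval there in any library, while Cd3d and Cd3e (T cells) and Cd79a (B cells) had one in all 12.

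A region below is a stretch where the reduced lists of at least 2 libraries had an interval, and it is called in a library when that library's reduced list overlaps it. Its rank is the place of its strongest interval in the library's reduced list, 1 being the strongest, with ties sharing a mean rank. The rank score is log2(35110/rank), so that a difference of 1 means that the rank number was halved. Peak heights were not compared between libraries, and a rank is relative to the other regions of its library. Over the 21089 regions called in all 12 libraries, the median stimulated minus control difference in rank score was −0.12, and no region near the 5 genes that passed the rank test changes sign when this shift is taken off. Positions are in mm10, in kb from the lower coordinate of the gene body, and Batf, Batf3, Bach1 and Bach2 read upwards from it in the RefSeq promoter table. Exon positions were not used here.

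The start windows of 3 genes, 250 bases before to 50 after the RefSeq start on the + strand of GRCm38.p6, lay in a region called in all 12 libraries and are shown because the data differed there between the genes. In these runs capitals mark matches to the motifs searched on both strands.
Batf, chr12:85686470-85686769: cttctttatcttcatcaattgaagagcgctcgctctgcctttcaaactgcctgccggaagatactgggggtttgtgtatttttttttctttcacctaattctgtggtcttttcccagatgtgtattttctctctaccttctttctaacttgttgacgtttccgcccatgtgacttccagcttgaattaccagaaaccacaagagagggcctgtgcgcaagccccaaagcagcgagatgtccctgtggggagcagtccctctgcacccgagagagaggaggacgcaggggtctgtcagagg
Batf3, chr1:191098164-191098463: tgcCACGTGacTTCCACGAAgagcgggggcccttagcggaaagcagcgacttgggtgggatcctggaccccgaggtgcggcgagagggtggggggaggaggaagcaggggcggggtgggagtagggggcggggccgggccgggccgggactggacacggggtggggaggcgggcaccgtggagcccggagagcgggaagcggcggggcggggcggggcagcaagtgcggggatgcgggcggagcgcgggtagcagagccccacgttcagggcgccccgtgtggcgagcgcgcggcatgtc
Bach1, chr16:87698704-87699003: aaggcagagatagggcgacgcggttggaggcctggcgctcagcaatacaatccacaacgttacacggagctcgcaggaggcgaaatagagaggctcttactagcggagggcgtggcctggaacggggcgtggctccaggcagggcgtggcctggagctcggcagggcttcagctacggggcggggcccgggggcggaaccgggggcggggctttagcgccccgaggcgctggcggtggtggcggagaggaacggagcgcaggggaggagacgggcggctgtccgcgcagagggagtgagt
The motifs were AP-1 (TGANTCA), CRE (TGACGTCA), STAT (TTCNNNGAA) and the E-box (CACGTG), none of which overlap here. The Batf3 window held an E-box from position −247 and a STAT match from position −239, counted back from the start. The Batf and Bach1 windows held none of the 4 motifs. Of all 32851 such windows, 7.15% held the E-box, 8.30% the STAT motif, 7.81% AP-1 and 1.79% CRE. The Batf3 window was 75.7% G or C with 34 CpG, the Bach1 window 69.7% with 31 and the Batf window 49.7% with 9, against medians of 52.7% and 7 over all windows. The Bach2 window in the table, chr4:32417185-32417484, is an internal start that held no deposited interval in any of the 12 libraries. Batf2 is named only.

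Batf (chr12:85686720-85709087) had 15 regions within 50 kb, and the region that moved most with stimulation lay inside the gene near its upper end, at +16.1 to +20.4 kb (chr12:85702813-85707089). Its ranks were 410.5, 951.5 and 360.5 in KO stimulated libraries, against 4967, 4750.5 and 5253.5 in KO control libraries. They were 230, 273 and 112 in WT stimulated libraries, against 5915.5, 5810.5 and 6247.5 in WT control libraries. All 6 stimulated libraries stood above all 6 control libraries in both genotypes, and in WT stimulated replicate 3 this was among the strongest 112 of 35110 intervals. The rank score rose by 4.11 ± 0.28 with stimulation (SE, 12 libraries, limma, adjusted p = 5.57e-08), by 3.26 ± 0.40 in KO and by 4.97 ± 0.40 in WT cells.

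The same Batf region also widened. It covered 1894, 3468 and 3014 bp in KO stimulated libraries and 1744, 2152 and 2301 bp in KO control libraries, so KO stimulated replicate 1 lay inside the control range. It covered 3894, 3824 and 4086 bp in WT stimulated libraries and 1665, 1729 and 1747 bp in WT control libraries. On the log2 scale, centred per library, the difference in width was 0.84 ± 0.12 (SE, limma, adjusted p = 0.000725).

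A second Batf region rose beyond the gene, at +42.4 to +43.8 kb (chr12:85729082-85730536), where the nearest gene is Flvcr2 at 16003 bp. Its ranks were 3910.5, 8826 and 6367 in KO stimulated libraries, against 24215.5, 26391 and 22905.5 in KO control libraries. In WT cells they were 3814.5, 4782.5 and 4303 in stimulated libraries, against 23092, 26781 and 26634 in control libraries. The stimulated and control libraries did not overlap, and the rank score rose by 2.295 ± 0.157 (SE, limma, adjusted p = 5.61e-08). The region also widened, by 0.63 ± 0.12 on the log2 scale (SE, limma, adjusted p = 0.00387). The remaining Batf region called in every library, at +58.7 to +60.2 kb over Flvcr2, had a difference of 0.05 ± 0.10 (SE, limma, adjusted p = 0.702).

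**Figure D1:**
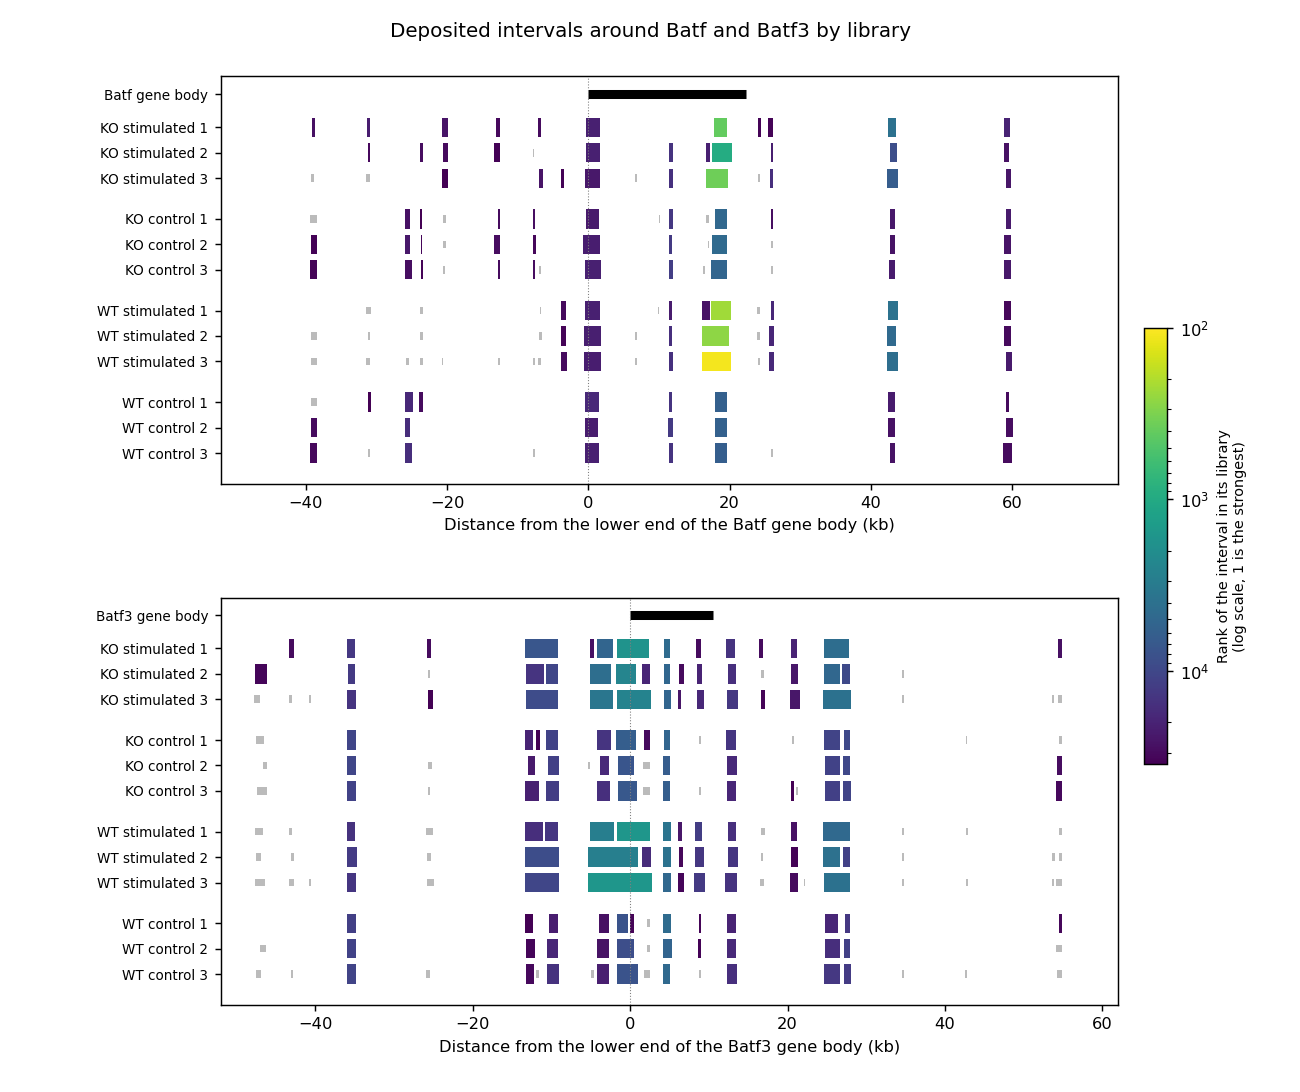
Deposited intervals in each of the 12 libraries around Batf (upper panel) and Batf3 (lower panel), by distance from the gene body's lower end in kb. Tall bars are intervals in the library's reduced list, coloured by rank on a log scale, and low grey bars are weaker deposited intervals. At +16.1 to +20.4 kb of Batf, each library's strongest interval ranks 112 to 951.5 in stimulated and 4750.5 to 6247.5 in control libraries.

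The region over the Batf start itself (−0.7 to +1.8 kb, chr12:85686003-85688508) had weak ranks of 18159 to 24231 in all 12 libraries, and its rank score differed by −0.03 ± 0.08 between stimulated and control libraries (SE, limma, adjusted p = 0.787). Its strongest summit was in another place. It lay at 0.6, 1.34 and 1.33 kb in KO stimulated libraries and at −0.01, 0 and 0.02 kb in KO control libraries. In WT cells it lay at 1.35, 1.31 and 1.33 kb in stimulated and at 0.04, 0.07 and 0.02 kb in control libraries. The start window printed above holds 5 of the 6 control summits, and the stimulated ones lay downstream of it. At +42.4 to +43.8 kb the strongest summit lay at 43.08 to 43.28 kb in stimulated and at 42.88 to 42.91 kb in control libraries. Stimulated and control summits did not overlap and had medians at least 200 bp apart at 3 of the 29 shared regions of the 5 genes, 1 of them near Batf3, and at 1.96% of all 21089. KO and WT summits were apart in this way at none of the 29 and at 0.0332% of all. The rule for summits was chosen after their positions had been seen, so these shares are a description only. No test was applied to summits.

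**Figure D2:**
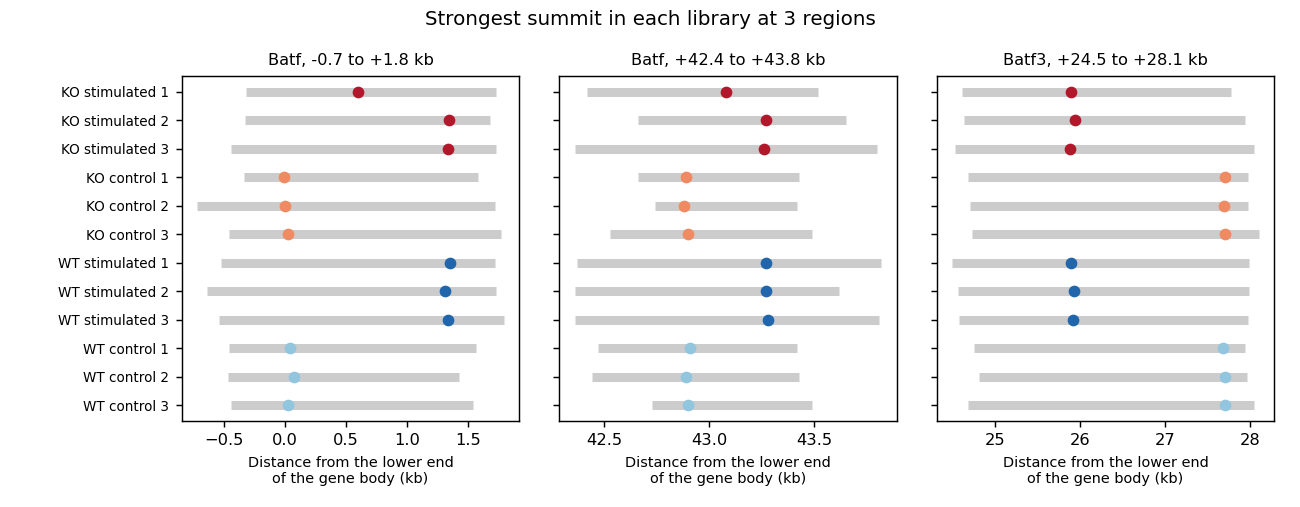
Position of the strongest summit (point) and the span of deposited intervals (grey bar) in each of the 12 libraries at 3 regions, in kb from the gene body's lower end. Stimulated and control libraries do not overlap in any panel, and KO stimulated replicate 1 lies between the others at both Batf regions.

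Among the weaker Batf regions, 1 was called more often and 1 less often after stimulation. The region at +25.5 to +26.2 kb (chr12:85712207-85712970) was called in 3 of 3 KO stimulated, 1 of 3 KO control, 3 of 3 WT stimulated and 0 of 3 WT control libraries (exact permutation test, adjusted p = 0.0335). That call ended with all deposited intervals, with −log10 q of at least 5, with lists halved to 17555 intervals and with a block for replicate number. The region at −26.0 to −24.8 kb (chr12:85660703-85661913), nearest to Jdp2, another AP-1 family gene, was called in no stimulated library and in all 6 control libraries (adjusted p = 0.0169 by the exact permutation test). It had a deposited interval in 1 stimulated library below the reduced list, WT stimulated replicate 3. The call ended with all deposited intervals (exact permutation test, adjusted p = 0.0595) and with lists halved to 17555 intervals. Over all 45082 regions, 6.62% were called more often and 5.08% less often with stimulation.

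Other Batf regions divided the groups without a call. The region at −20.8 to −19.8 kb was called in 3 of 3 KO stimulated libraries and in no library of the other groups. The region at −7.9 to −7.4 kb was called in 3 of 3 KO control libraries and in no other. The region at −3.9 to −3.1 kb was called in 1 of 3 KO stimulated, 0 of 3 KO control, 3 of 3 WT stimulated and 0 of 3 WT control libraries (exact permutation test for stimulation, adjusted p = 0.0634). Below the reduced lists, the region at −20.8 to −19.8 kb also had a deposited interval in 3 of 3 KO control and 1 of 3 WT stimulated libraries.

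Batf3 (chr1:191098414-191108943) had 12 regions, 6 of them called in every library. The broad region over its start (−5.3 to +2.7 kb, chr1:191093087-191101135) had ranks of 1713, 2435.5 and 2572 in KO stimulated and 6292, 7528.5 and 7116.5 in KO control libraries. In WT cells the ranks were 1596.5, 2886.5 and 1623.5 in stimulated and 7900.5, 8856 and 7752.5 in control libraries. No stimulated library overlapped the controls. The difference in rank score was 1.66 ± 0.25 in KO and 2.06 ± 0.25 in WT cells (SE), at a start whose printed window was the richest in CpG of those shown.

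The covered width over the Batf3 start was 6556, 6218 and 7237 bp in KO stimulated and 5096, 3270 and 4051 bp in KO control libraries. It was 7286, 7549 and 8049 bp in WT stimulated and 3046, 3611 and 4189 bp in WT control libraries. In the stimulated libraries the intervals around the start thus spread over most of the 8 kb region.

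Beyond the Batf3 gene, the region at +24.5 to +28.1 kb (chr1:191122919-191126511) had ranks of 4394.5, 5106.5 and 3977 in KO stimulated and 9652, 9895.5 and 10823 in KO control libraries. It had ranks of 4890.5, 4069.5 and 3932 in WT stimulated and 13525, 11534 and 12537.5 in WT control libraries. Its strongest summit was at 25.88 to 25.94 kb in all 6 stimulated libraries and at 27.68 to 27.7 kb in all 6 control libraries. The median summit position differed by −1787.5 bp, stimulated minus control. Below the gene, the region at −13.3 to −9.0 kb differed by 0.41 ± 0.19 in KO and 0.75 ± 0.19 in WT cells (SE, rank score), and the region at −36.0 to −34.8 kb over Nsl1 by −0.36 ± 0.12 and −0.33 ± 0.12.

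The 2 Batf3 regions known beforehand were weak. The one inside the gene at +6.0 to +6.8 kb was called in 2 of 3 KO stimulated, 0 of 3 KO control, 3 of 3 WT stimulated and 0 of 3 WT control libraries, and no control library held even a weaker interval. The one at +20.3 to +21.5 kb was called in 3 of 3, 1 of 3, 3 of 3 and 0 of 3 libraries of the same groups. Another, at +8.1 to +9.5 kb, was called in 3 of 3 KO stimulated, 0 of 3 KO control, 3 of 3 WT stimulated and 2 of 3 WT control libraries.

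Batf2 (chr19:6164397-6172476) had little accessible chromatin of its own. None of its 4 regions overlapped the gene body. The nearest, at −7.3 to −6.5 kb, was called in 1 of 3 KO stimulated, 1 of 3 KO control, 2 of 3 WT stimulated and 0 of 3 WT control libraries. Below the reduced lists, an interval over the lower gene end (chr19:6164088-6164751) was deposited in 1 of 3 KO stimulated and 2 of 3 WT stimulated libraries and in no control library. The other 3 regions overlapped the neighbours Sac3d1, Snx15 and Arl2 and were called in all 12 libraries. Their stimulated minus control differences in rank score were −0.31 ± 0.30, −0.32 ± 0.17 and 0.15 ± 0.25 (SE), and none passed (limma, adjusted p of 0.128 to 0.646).

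Bach2 (chr4:32238413-32586109), the longest of the 5 genes, had 24 regions. Here regions near its lower end fell in rank, while a region at its upper end, mostly beyond the gene body, rose. The region over the lower end (−0.5 to +2.3 kb, chr4:32237953-32240683) had ranks of 10570, 10179.5 and 12332 in KO stimulated and 7981.5, 6631.5 and 7837 in KO control libraries. In WT cells the ranks were 12924.5, 12638.5 and 13196 in stimulated and 4612, 6851 and 6906.5 in control libraries. Every stimulated library stood below every control library, and the rank score fell by 0.83 with an SE of 0.12 (limma, adjusted p = 6.26e-05). The width of this region fell by 0.53 on the log2 scale, with an SE of 0.11 (limma, adjusted p = 0.00729).

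The largest fall at Bach2 was inside the gene at +18.9 to +21.8 kb (chr4:32257349-32260227). Its ranks were 16161, 8826 and 10026 in KO stimulated, against 4236.5, 3738 and 3879 in KO control libraries. In WT cells they were 9907.5, 10883.5 and 10445.5 in stimulated, against 1787, 2775.5 and 3156 in control libraries. The groups did not overlap by treatment, and the rank score fell by 1.79 with an SE of 0.17 (limma, adjusted p = 1.43e-06). Between these, the strongest Bach2 region (+9.2 to +14.3 kb, chr4:32247640-32252690) had ranks of 148 to 834 in stimulated and 151 to 685 in control libraries. Its rank score differed by −0.15 ± 0.41 (SE, limma, adjusted p = 0.789). It was narrower after stimulation, at 3834, 3303 and 3668 bp in KO stimulated and 4867, 4844 and 4946 bp in KO control libraries. In WT cells it covered 3334, 3709 and 4698 bp in stimulated and 5014, 4710 and 4909 bp in control libraries, and its log2 width fell by 0.34 with an SE of 0.07 (limma, adjusted p = 0.00833).

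The marker lists were compared over the same libraries. The rank scores of the 10 NK markers summed to 21.0 to 22.8 in KO stimulated and 18.7 to 20.7 in KO control libraries, and to 24.8 to 27.4 in WT stimulated and 23.6 to 24.0 in WT control libraries. The NK sums were higher in stimulated than in control libraries of each genotype, and lower in every KO than in every WT library. The order by treatment depended on Il2rb and was not shared by all 10 genes. Il2rb and Klrk1 were higher in every stimulated than in every control library of each genotype, while Ncr1 and Klrb1c were lower. Gzma was higher and Gzmb and Eomes were lower in this way in WT cells only. The NK sums therefore do not show a rise common to these markers. The rank scores of 5 T cell markers summed to 4.80 to 6.17 in KO stimulated and 6.58 to 7.16 in KO control libraries. They summed to 4.39 to 5.06 in WT stimulated and 5.92 to 7.89 in WT control libraries. The T cell sums were lower in stimulated than in control libraries of each genotype, as were Cd3d and Cd3e. Cd4 went the other way in KO cells, at 0.44, 0.56 and 0.39 in stimulated and 0, 0.29 and 0.32 in control libraries. In WT cells the Cd4 scores of the treatments overlapped, so the fall was not shared by all of these markers. Reduced lists held 2 to 3 of these 5 genes in each library, with Cd3g and Cd8b1 at 0. The 5 B cell markers summed to 0.35 to 4.79 in KO stimulated, 4.77 to 5.13 in KO control, 4.08 to 4.50 in WT stimulated and 4.51 to 5.05 in WT control libraries. The stimulated and control sums overlapped in KO cells. Reduced lists held 1 to 2 of these 5, Cd79a in all 12 libraries and Blk in 3, with Ms4a1 and Pax5 among those at 0. Fewer cells of a type and less accessible chromatin per cell cannot be told apart in such bulk libraries, and the part of these markers in the Bach2 result was not tested.

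At the other end of Bach2, the region over the upper end (+347.7 to +350.8 kb, chr4:32586099-32589209) had ranks of 3340.5, 3778 and 4058.5 in KO stimulated and 6078, 7411 and 6589 in KO control libraries. In WT cells the ranks were 4123.5, 4952 and 5705.5 in stimulated and 7275.5, 11692 and 10771 in control libraries. All stimulated libraries stood above all controls, and the rank score rose by 0.92 ± 0.15 (SE, limma, adjusted p = 0.000149). The region lay almost wholly beyond the gene body, which ends at +347.7 kb, and its strongest summit was at 349.98 to 350.04 kb. A region deep in the gene at +152.4 to +153.4 kb (chr4:32390785-32391775) had ranks of 18228.5, 8367 and 7619 in KO stimulated and 17013.5, 17586.5 and 17033 in KO control libraries. In WT cells they were 6664, 7880 and 9461 in stimulated and 16705, 16696.5 and 18090 in control libraries. Only KO stimulated replicate 1 lay with the controls, and the rank score rose by 0.91 ± 0.18 (SE, limma, adjusted p = 0.000668). This region also widened, by 0.77 ± 0.20 on the log2 scale (SE, limma, adjusted p = 0.0216), a call that ended without WT stimulated replicate 2 (adjusted p = 0.0543). Smaller differences passed at +124.7 to +125.9 kb, where the rank score rose by 0.39 ± 0.12 (SE, limma, adjusted p = 0.0144), and at +201.3 to +203.0 kb, where it fell by 0.38 with an SE of 0.12 (limma, adjusted p = 0.0174). At +201.3 to +203.0 kb the call ended without KO control replicate 3 (limma, adjusted p = 0.0519) and in an exact permutation test of ranks (adjusted p = 0.0645).

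Among the Bach2 regions not called in every library, 1 passed as higher and 2 as lower. The region at +185.4 to +186.5 kb (chr4:32423835-32424943) was called in 3 of 3 KO stimulated, 1 of 3 KO control, 3 of 3 WT stimulated and 0 of 3 WT control libraries (exact permutation test, adjusted p = 0.0335). That call ended with all deposited intervals, with −log10 q of at least 5, with lists of 17555 intervals, with a 50% cover and with a block for replicate number. The region at +149.0 to +150.4 kb (chr4:32387380-32388819) was called in none of 6 stimulated but in all 6 control libraries (adjusted p = 0.0169 by the exact permutation test), and 4 stimulated libraries held a weaker interval there. The call ended with all deposited intervals, with −log10 q of at least 5 and with lists of 17555 intervals. The region lies 1966 bp below the region at +152.4 kb, which rose. The region at +333.7 to +334.1 kb was called in no stimulated library, 3 of 3 KO control and 2 of 3 WT control libraries (exact permutation test, adjusted p = 0.0335). A weaker interval lay there in KO stimulated replicate 3, WT stimulated replicates 2 and 3 and WT control replicate 3. The call ended with all deposited intervals, with −log10 q of at least 5 and with lists of 17555 intervals. It also ended with a block for replicate number and with a 50% cover (exact permutation test, adjusted p = 0.0711 with that cover).

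Another 3 Bach2 regions, starting at +23, +127.8 and +154.8 kb, were called in 3 of 3 WT stimulated libraries and in none of the other 9. Each had a smallest possible p above the threshold, so none could be tested. The region at +41.7 to +43.5 kb was called in 3 of 3 KO stimulated, 0 of 3 KO control, 3 of 3 WT stimulated and 2 of 3 WT control libraries. The region at +166.8 to +167.9 kb was called in 3 of 3, 2 of 3, 3 of 3 and 0 of 3 libraries of the same groups (exact permutation test, adjusted p = 0.0634 for both). At +41.7 to +43.5 kb all 12 libraries had a deposited interval.

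Bach1 (chr16:87698954-87733346) had 8 regions, and its start did not pass while regions on both sides of it did. The start region (−0.4 to +2.1 kb, chr16:87698543-87701070) had ranks of 7058, 6640 and 4615 in KO stimulated, 5883.5, 4609.5 and 5030.5 in KO control, 8092.5, 7774 and 7962 in WT stimulated and 9785, 6851 and 6678 in WT control libraries. The treatments overlapped, with a difference in rank score of −0.14 ± 0.15 (SE, limma, adjusted p = 0.466). At −38.0 to −36.9 kb (chr16:87660930-87662023) the ranks were 9716, 16181 and 14882 in KO stimulated and 23344.5, 25862 and 21248.5 in KO control libraries. They were 10517, 13579.5 and 13576 in WT stimulated and 24619.5, 25359 and 23844.5 in WT control libraries. The treatments did not overlap there, and the rank score rose by 0.90 ± 0.12 (SE, limma, adjusted p = 3.26e-05).

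Inside Bach1, the region at +13.1 to +15.1 kb (chr16:87712076-87714066) had ranks of 1922, 3728 and 5226.5 in KO stimulated and 6032, 5821.5 and 5718.5 in KO control libraries. In WT cells the ranks were 3912, 3959 and 3979.5 in stimulated and 5915.5, 6523.5 and 4943 in control libraries. The treatments overlapped only through KO stimulated replicate 3 and WT control replicate 3, and the rank score rose by 0.68 ± 0.20 (SE, limma, adjusted p = 0.0135). Both rising Bach1 regions also widened, by 0.28 ± 0.08 and 0.38 ± 0.11 on the log2 scale (SE, limma, adjusted p = 0.0259 and 0.0326). At −38.0 kb the width call ended without KO control replicate 3, any 1 of the WT stimulated libraries or WT control replicate 2 (adjusted p of 0.0520 to 0.0641). At +13.1 kb it ended without KO stimulated replicate 2 or 3, KO control replicate 1 or 2, WT stimulated replicate 1 or 2 or WT control replicate 1 or 2 (adjusted p of 0.0550 to 0.0721). Both ended with uncentred widths (adjusted p = 0.0732 and 0.145). A weak region 1509 bp above the gene, at +35.9 to +36.3 kb (chr16:87734855-87735255), was called in all 6 stimulated libraries and in no control library (adjusted p = 0.0169 by the exact permutation test). All 12 libraries had a deposited interval there, with ranks of 21367.5 to 29975 in stimulated and 39474 to 45888 in control libraries, so the call reflects strength and not presence. It ended with all deposited intervals and with −log10 q of at least 5.

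**Figure D3:**
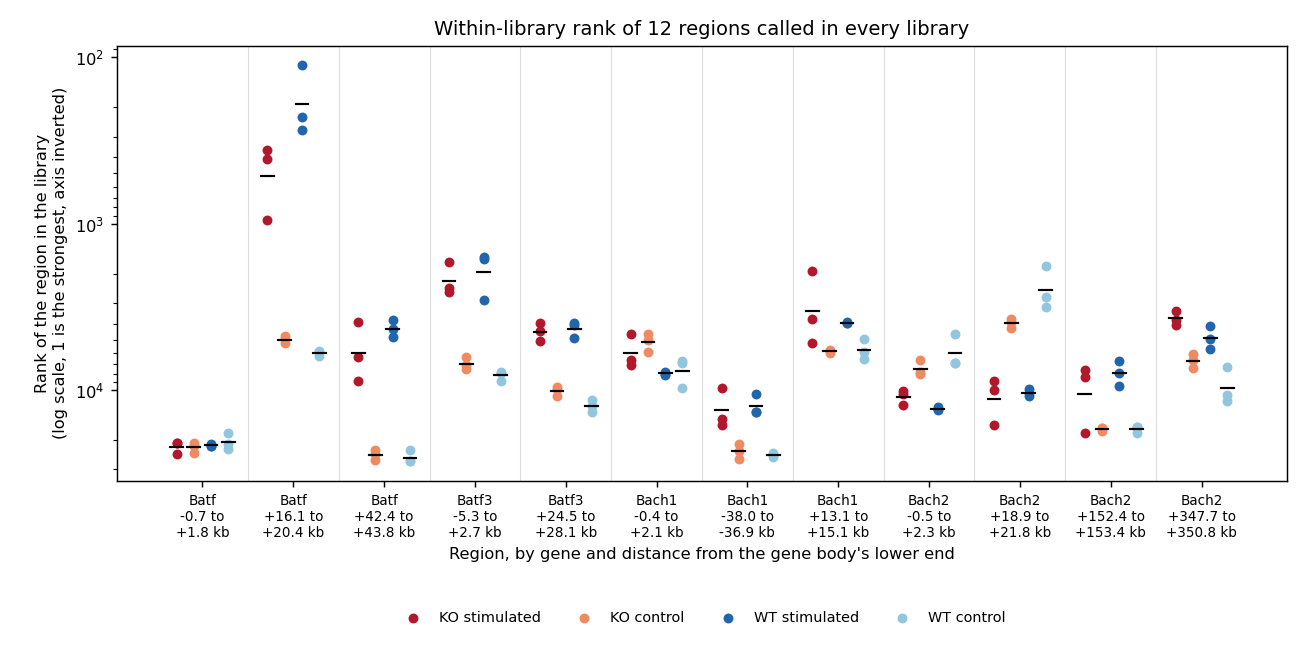
Within-library rank of 12 regions called in every library, on an inverted log axis with the strongest rank 1 at the top. Each point is a library, in the order KO stimulated, KO control, WT stimulated and WT control within each region, and each line is the group's geometric mean. At +16.1 kb of Batf the stimulated ranks of 112 to 951.5 stand apart from control ranks of 4750.5 to 6247.5, while the starts of Batf and Bach1 overlap.

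Counted over the 51 regions of the 4 genes other than Batf3, 3 were called more often and 3 less often with stimulation, when 6.62% and 5.08% of all regions were. With all deposited intervals in place of the reduced lists, 1 other region near the 5 genes was called more often and none less often, and none of the 8 regions that passed in the reduced lists did. In rank, stimulation raised the rank score at 7 and lowered it at 3 of the 23 regions called in all 12 libraries, and 13 did not pass. Over all 21089 such regions 18.6% rose and 26.2% fell. The median difference was −0.03 over these 23 regions, against −0.12 over all. By gene, 2 rose and none fell of 4 at Batf, none moved of 3 at Batf2, 2 rose and none fell of 4 at Bach1, and 3 rose and 3 fell of 12 at Bach2. Width rose at 5 and fell at 2 of the 23 regions, against 10.2% and 6.35% of all. It passed between the genotypes at none of the 29 regions, against 0.256% higher and 0.313% lower of all. With such shares in the whole genome, the counts by themselves do not set these genes apart.

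Regions called in 3 of 3 libraries of one group and 0 of 3 of another were also counted over the 63 regions. Called in all KO stimulated and in no KO control libraries were 4 (6.35%, against 5.19% of all 45082 regions), and the reverse held for 4 (against 4.65%). A library without a call can hold a weaker deposited interval, and KO control libraries held one at each of the first 4. Called in all WT stimulated and in no WT control libraries were 10 (15.9%, against 9.42%), and the reverse held for 2 (3.17%, against 6.42%). Of the 10, 5 lay at Bach2, 2 at Batf, 2 at Batf3 and 1 at Bach1. The 2 at Batf3 were those known when the genes were chosen, so the stimulation shares over 63 regions are a description only. Between the genotypes, 1 was called in all KO stimulated and in no WT stimulated libraries (1.59%, against 1.03%), and 4 the other way round (against 1.71%). In control cells, 2 were called in all KO and in no WT libraries (against 1.14%) and none the other way round (against 0.892%). With 3 libraries against 3 the smallest two-sided exact p is 0.1, so no test was made of these counts.

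**Figure D4:**
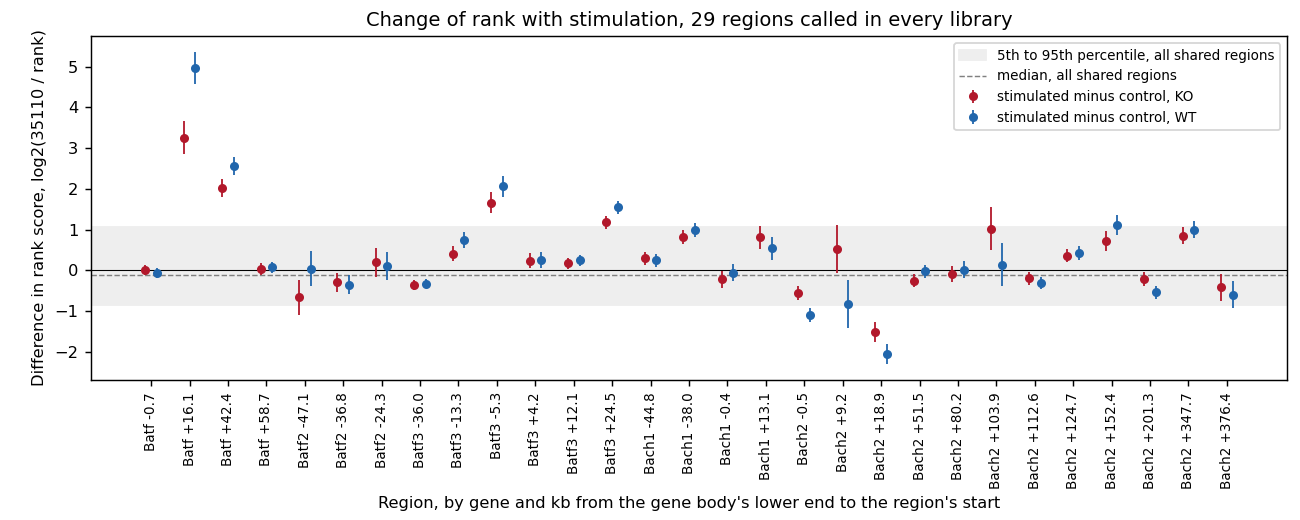
Stimulated minus control difference in rank score, with its SE, in KO cells and in WT cells at the 29 regions called in every library, by gene and distance of the region's start in kb. The grey band holds the 5th to 95th percentile of all 21089 shared regions and the dashed line is their median of −0.12. The Batf region at +16.1 kb lies far above the band at 3.26 in KO and 4.97 in WT cells, and the Bach2 region at +18.9 kb lies below it at −1.51 and −2.06.

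In the number of called regions per gene, Batf3 had 10.3 ± 1.155 in KO stimulated, 7 ± 1 in KO control, 9 ± 0 in WT stimulated and 7 ± 1 in WT control libraries (SD, n = 3 each). Bach1 had 6.33 ± 0.577 in KO stimulated, 5 ± 1 in KO control, 7.33 ± 0.577 in WT stimulated and 5.33 ± 1.155 in WT control libraries, a difference of 1.67 with stimulation (exact permutation test, adjusted p = 0.0716). Batf, Batf2 and Bach2 differed by −0.33, 0.33 and 1.17 regions with stimulation (exact permutation test, adjusted p = 0.696, 0.747 and 0.491). Over 15589 genes, 5.91% gained and 8.01% lost regions by this test.

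Between the genotypes, a single region near the 5 genes passed. At +124.7 to +125.9 kb inside Bach2 (chr4:32363121-32364280) the ranks were 20925.5, 28755.5 and 24231 in KO stimulated and 12365.5, 16928 and 16840 in WT stimulated libraries. They were 34483.5, 30764 and 29098.5 in KO control and 16705, 24020.5 and 21055.5 in WT control libraries. Within each treatment every KO library stood below every WT library, and the rank score fell by 0.65 in KO cells with an SE of 0.12 (limma, adjusted p = 0.00655), a call that an exact permutation test of ranks did not make (adjusted p = 0.0914). The difference was −0.68 ± 0.17 in stimulated and −0.62 ± 0.17 in control cells (SE). Of all 21089 regions, 1.69% were higher and 3.08% lower in KO cells, so 1 of 29 is near the share in the whole genome. Without KO stimulated replicate 1, 4 regions near these genes were higher and 4 lower in KO cells, when 14.6% of 22442 regions passed. The 4 higher ones were at −13.3 kb of Batf3, at the start of Bach1 and at +331.4 and +347.7 kb of Bach2, and the 4 lower ones at +42.4 kb of Batf and at +51.5, +103.9 and +124.7 kb of Bach2.

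Calls differed by genotype in 2 places without passing. Inside Bach1, at +17.2 to +17.9 kb (chr16:87716190-87716903), a region was called in 0 of 3 KO stimulated and 3 of 3 WT stimulated libraries, and in 0 of 3 KO control and 2 of 3 WT control libraries. Below Batf, at −13.3 to −12.5 kb (chr12:85673442-85674211), a region was called in 2 of 3 KO stimulated and 0 of 3 WT stimulated libraries, and in 3 of 3 KO control and 0 of 3 WT control libraries. Both had an exact permutation p of 0.02 and an adjusted p of 0.147, and no region of the 45082 passed for genotype in that test. Batf had 9.67 ± 0.577 called regions in KO stimulated and 7 ± 0 in WT stimulated libraries, and 10 ± 0 in KO control and 7.33 ± 0.577 in WT control libraries (SD, n = 3 each). This was 2.67 more in KO cells, in 6 of 6 KO libraries above all 6 WT libraries (exact permutation p = 0.005, the smallest possible, adjusted p = 0.611). Within 20 kb the difference was 1.83, and KO control (6 to 7 regions) and WT stimulated libraries (6) were no longer apart. The full lists held 11 to 13 Batf intervals in KO stimulated and 13 to 17 in WT stimulated libraries. They held 13 to 14 in KO control and 7 to 10 in WT control libraries. No gene of 15589 passed for genotype. The stimulation difference did not pass as different between KO and WT cells at any of the 21089 regions (limma, interaction), and a p that misses the threshold does not show that the genotypes acted alike.

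Read against the 50 kb limit, the farthest regions taken were 28.7 to 45.3 kb from the gene bodies, and the nearest ones left out were 56.3 to 112.6 kb away. Of the 5 left out, 3 were called in all 12 libraries, with stimulated minus control rank score differences of −0.80 beside Batf, 0.11 beside Batf2 and 0.36 beside Bach2. In the full lists, the 5 genes had 94 merged regions, of which 31 held no tested region. Of those 31, 8 had an interval in 1 library only and 17 in 3 or more.

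The genes whose mean rank score over all their regions followed that of a member most closely over the 12 libraries were found by Pearson's r, as a description. For Batf they were Plac9a, Ostn and Uts2b (r of 0.966 each), and for Batf3 Zfp658 and Zfp719 (0.994 each) and Acvr1 (0.991). For Bach1 they included Furin (0.992) and Blm (0.986), for Bach2 Insc (0.952), 1700057G04Rik (0.944) and Tie1 (0.941), and for Batf2 Snapc4 (0.926), Card9 (0.906) and Adipor1 (0.891). The 12 points share treatments and genotypes and come from lists of differing length, and none of these was taken out of r. Regions that the matched genes share with one another were not excluded. Ostn and Uts2b had the same r and 4 regions each, and Zfp658 and Zfp719 the same r and 6 each. Such pairs are not to be read as separate observations.

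A list of 22 genes that act with these factors was counted the same way. It held JUN and FOS genes, small MAF and NFE2-related genes, Irf4, Irf8, and the BACH targets Prdm1 and Hmox1. Of its 216 regions, 12 (5.56%) were called more often and 8 (3.70%) less often with stimulation. Of its 121 regions called in every library, 33 (27.3%) rose and 21 (17.4%) fell in rank, against 18.6% and 26.2% of all regions. Without the regions that the list shares with the 5 genes, 32 of 119 (26.9%) rose and 21 (17.6%) fell. Prdm1, a gene that BACH2 represses in B cells, had 3 regions called more often and none less often, and Irf4, a partner of BATF, had 2 and none. Irf8, another partner, had 7 of 10 shared regions rise in rank and 1 fall. Jdp2 had 2 and 1 called regions, but 10 of its 19 regions are also those of Batf, its neighbour, and 2 of the 9 regions of Atf3 are also those of Batf3. Mafk, a partner of the BACH proteins, had none called more often and 2 less often. Hmox1, repressed by BACH1, had no region that passed.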

How the data were processed

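ATAC-seq libraries of 12 samples in 4 groups (genotype and treatment from the sample labels) were deposited by the authors as 1 list of peak intervals per library. MACS2 2.1.1.20160309, Bowtie2 2.3.4.1, cutadapt 4.1, deepTools 3.4.2, FastQC 0.11.9, SAMtools 1.15.1 and the build mm10 are named, per the submitters' processing notes, and their settings and any shift of reads for the transposase are not given in the sources used here. The authors' fold is a ratio, and it and the −log10 p and q values they deposited belong to a peak within its own library, so they were used only to rank intervals within a list. Ranking by the fold gave the same 45082 regions.

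Summits sharing an interval were taken as 1 interval on chromosomes 1 to 19, X and Y. Reduced lists of 35110 intervals were merged at 1 bp. Gene bodies and promoter windows came from RefSeq, GRCm38.p6, the assembly behind mm10. Calls were compared by an exact two-sided permutation test within strata (400 rearrangements, smallest p 0.005), with Benjamini-Hochberg adjustment over the 8834 (stimulation) or 1817 (genotype) regions whose margins allow p of 0.05. Ranks and widths were compared with limma 3.58.1 (R 4.3.3, trend) over 21089 regions. Adjusted p values of 0.05 or less passed. Tested on simulated data over 21089 regions for stimulation, the rank test recovered 38% of shifts of 0.5, 85% of 1 and 98% of 2, and called 0.0287% of unchanged regions. The simulated shifts were set in only 50, 100 and 50 regions, with independent noise. In the data 18.6% of regions rose and 26.2% fell, so the simulated rates do not carry over to the results above.

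The members and the lists were chosen with earlier results of these data known. The text names each region that passes a test, lies over a gene end or is called in 3 of 3 libraries of one group and 0 of 3 of another within a genotype or treatment, and gives the rest as counts. Some genes that the naming rules cover are not reported here. Alternatives were list length, all deposited intervals, −log10 q of at least 5, a cover of 50%, flanks of 20 kb, an exact permutation test of ranks, uncentred widths, a replicate block and each library left out.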

Additional observations from a re-analysis of the deposited data

Results flagged for a closer look

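The Batf region at +16.1 to +20.4 kb stood out because the genotypes lay apart in every library, in opposite directions in the treatments. Its ranks were 360.5 to 951.5 in KO stimulated and 112 to 273 in WT stimulated libraries, and 4750.5 to 5253.5 in KO control and 5810.5 to 6247.5 in WT control libraries. The stimulated minus control difference in rank score was thus smaller by 1.71 in KO than in WT cells (KO minus WT, −1.71 ± 0.56, SE), and the test of that difference did not pass (limma, adjusted p = 0.507). Within stimulated cells alone the KO minus WT difference was −1.44 ± 0.40 (SE, limma, adjusted p = 0.0694).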

How the results depend on the processing

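Of 320 recomputed counts, 291 stayed within 1.5 times the value given, and no direction reversed. Regions called more often with stimulation (5 near the 5 genes) numbered 1 with all deposited intervals, 0 with −log10 q of at least 5, 3 with lists of 17555 intervals and 1 with the replicate block. Those called less often (3) numbered 0, 1 and 0 with the first 3 of these settings. With lists of 17555 intervals, 5 regions rose in rank (10 before) and 2 widened (8 before). Outside Batf3, the rank calls lost there were at +42.4 kb of Batf, −38.0 kb of Bach1 and +124.7, +152.4 and +201.3 kb of Bach2. These regions had ranks beyond 17555 in some libraries, so their ranks were not tested at that length. The counts for stimulation include Batf3, whose pattern was known when it was chosen. Genes with more regions after stimulation (1, Batf3) numbered 2 with 20 kb flanks, with Bach1 added (exact permutation test, adjusted p = 0.0407), 0 with 50% cover, all deposited intervals, −log10 q of at least 5 or the replicate block, and 0 to 1 when single libraries were left out. By genotype, regions higher in KO cells (0) numbered 2 with the replicate block and 0 to 4 with single libraries left out, and those lower (1) numbered 0 by exact permutation of ranks or with lists of 17555, and 1 to 4 with single libraries left out. Regions narrower in KO cells (0) numbered 1 with uncentred widths. The cause was not tested. Libraries with the same number deviated together with correlations of −0.016 to 0.542 (18 pairs, 17 above 0, median 0.168), against −0.492 to 0.373 (median −0.074) with different numbers. All 3 pairs exceeded 0.1 in 3 of the 6 pairs of groups and not in the others, so the numbers were not taken as pairs. The block moved no other count by over 1.5 times. With the block the smallest exact p is 0.0312. The read depth is unknown, so no depth limit was computed.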
